A study of Oryza sativa with 6 samples.

Results

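Auxin response factors (ARFs) and Aux/IAA proteins are the transcriptional arm of auxin signalling in plants. ARFs bind auxin response elements in the promoters of their target genes, and Aux/IAA proteins bind ARFs and bring in TOPLESS co-repressors that keep those targets silent. When auxin is present, receptors of the TIR1/AFB group mark the Aux/IAA proteins for degradation and the ARFs are released. In leaves the pathway is known for its part in blade growth, polarity and vein formation, and many Aux/IAA genes are themselves switched on by auxin.

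The genes described here are all rice genes whose symbol or synonym is ARF or IAA followed by a number. The gene table held 51 of them among 39387 genes, 23 ARF and 28 Aux/IAA genes, and no ADP-ribosylation factor matched the rule. Of these, 43 had a probe set of their own on the array (17 ARF and 26 Aux/IAA genes), out of 17905 genes with such a probe set. Several numbers have been given to more than 1 gene, so each gene is called here by the number that follows the order along the chromosomes, and its gene identifier is given at first use.

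Leaf RNA of 3 MADS29OX samples and 3 wild-type (WT) samples of *Oryza sativa* var. PB1 was measured on Affymetrix rice arrays, each sample on an array of its own. MADS29OX plants carry an *OsMADS29* cDNA behind a ubiquitin promoter, which is active in most tissues, while WT plants are untransformed PB1. Both groups were sampled at the leaves 3 and 4 below the flag leaf, while the labels leave out plant age, harvest time and the transgenic line behind each MADS29OX array. The labels call the samples biological replicates without saying whether they were separate plants, so p-values measure the spread between these samples.

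The values are probe set signals on a linear scale. Signals under 16 were raised to 16, the floor, before log2 was taken, and a gene was tested with limma if its probe set rose above the floor on at least 1 array. A gene was called higher or lower in MADS29OX leaves at a Benjamini-Hochberg adjusted p of at most 0.05, over all tested probe sets, and a change of at least 2-fold. Signals of different probe sets are not comparable as transcript levels, so only changes are set side by side between genes. A log2 change is the log2 fold change of MADS29OX over WT, given with its standard error after ±.

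The overexpressed gene followed the labels. For *OsMADS29* (LOC4328443) the MADS29OX arrays gave 2016, 1788 and 3590, and the WT arrays 6.70, 6.37 and 6.64. The MADS29OX arrays differed more among themselves than the WT arrays did, with correlations of log2 signals of 0.936 to 0.969 within MADS29OX, 0.877 to 0.899 between MADS29OX and WT, and 0.992 to 0.997 within WT. Of the leaf mesophyll genes with a probe set, 3 of 4 were above the floor. Their summed signal ran from 21238 to 27915 on the MADS29OX arrays and from 19724 to 19933 on the WT arrays, while its members went different ways. *CAB2R*, a chlorophyll-binding protein gene, was called higher (log2 change 1.46 ± 0.21, limma adjusted p = 0.00562), *rca*, for Rubisco activase, was lower at the adjusted p alone (-0.27 ± 0.07, limma adjusted p = 0.0446), and *rbcS* did not pass (0.35 ± 0.25, limma adjusted p = 0.358). The part of these markers in the changes below was not tested. The 5 shoot meristem and 5 dividing cell genes with a probe set lay below the floor on all arrays, with highest signals of 8.24 and 5.89. Of 4 seed storage genes, 3 lay below the floor, and the fourth, the glutelin gene *GLUA2*, had 61.5, 65.6 and 54.6 in MADS29OX leaves against 75.1, 77.0 and 74.5 in WT leaves. In whole leaves, fewer cells of a type and less RNA per cell cannot be told apart.

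ARF genes were lower in MADS29OX leaves more often than they were higher. Of 17 ARF genes on the array, 13 were tested, 4 of them were called lower (*ARF3*, *ARF22*, *ARF15* and *ARF1*) and 0 were called higher, while 5.03% of all 10045 tested genes were called lower and 5.05% higher. A further 5 ARF genes were lower and 1, *ARF18*, was higher at the adjusted p alone, with changes under 2-fold, and 3 did not pass. At the adjusted p alone that makes 9 of 13 ARF genes lower, against 15.1% of all tested genes, and 1 higher, against 11.4%. *ARF18* was also the 1 ARF gene higher at an unadjusted p of at most 0.05 in limma (background 17.0%), where 11 were lower (background 21.9%). The counts of lower genes include *ARF17* and the called *ARF1*, which passed the filter on WT arrays alone and so could only come out lower. With only genes of a mean signal of at least 32 tested, which leaves out both and others, 3 ARF genes were called lower. The ARF genes tested with that filter were *ARF3*, *ARF4*, *ARF9*, *ARF12*, *ARF15*, *ARF22*, *ARF23* and *ARF24*. The share of all genes called with it was not counted. Of the 10 ARF genes that passed at the adjusted p, 3 (*ARF1*, *ARF3* and *ARF22*) still passed whichever single array was left out. Such fits have fewer arrays to estimate the spread, and this count was not made over all tested genes.

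On 11 of the 13 tested ARF genes all MADS29OX arrays lay below all WT arrays, and on 1 all lay above, against 25.4% and 20.5% of all tested genes. The median log2 change of the tested ARF genes was -0.57, with a range of -1.51 to 0.34, and the median over all tested genes was -0.01. Both *ARF1* and *ARF17* were at the floor on all MADS29OX arrays and passed the filter on WT arrays alone, so these counts describe the genes that passed and not the whole family. The remaining 4 ARF genes, *ARF10*, *ARF13*, *ARF14* and *ARF16*, stayed below the floor on all 6 arrays with signals of at most 10.3, and 6 ARF genes had no probe set of their own.

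**Figure D1:**
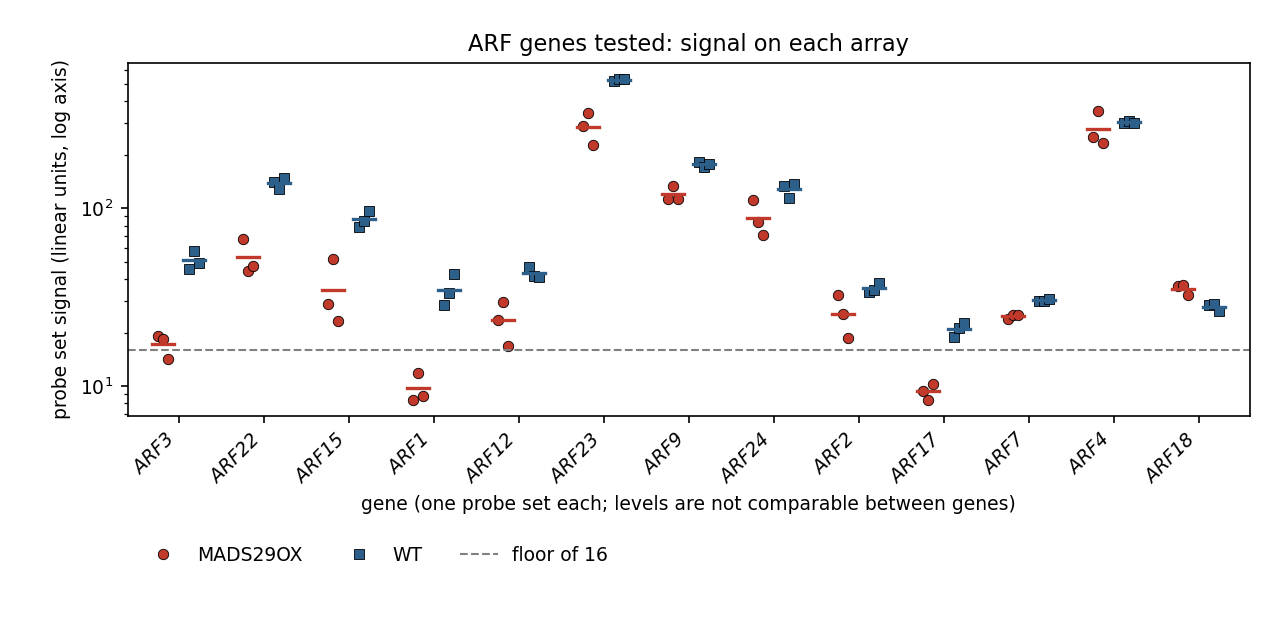
Signal of the 13 tested ARF genes on each array (log axis), with MADS29OX arrays as red circles left of WT arrays as blue squares; short lines are group means (n = 3) and the dashed line is the floor of 16. In 11 genes all MADS29OX arrays lie below all WT arrays, and the *ARF4* groups overlap.

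The ETTIN-type ARFs, which act with leaf polarity factors and are targets of trans-acting small RNAs, held *ARF3*, which had the lowest log2 change of the tested ARF genes at the floor of 16. With no floor it was -1.57, and *ARF1*, whose change is only bounded at the floor, was lower at -1.84. With a floor of 32, above all MADS29OX signals of *ARF3*, the change of *ARF3* was -0.67, under 2-fold. *ARF3* (LOC4327014) had signals of 19.2, 18.3 and 14.2 in MADS29OX leaves, against 45.8, 57.8 and 49.6 in WT leaves. All MADS29OX arrays were below all WT arrays, and the change was 2.86-fold (log2 change -1.51 ± 0.12, limma adjusted p = 0.000911). *ARF15* (LOC9268260), also named *OsETTIN1*, had 28.9, 51.7 and 23.2 in MADS29OX leaves, against 78.6, 85.0 and 96.0 in WT leaves. The groups did not overlap, but the MADS29OX arrays spread widely, with replicate 2 the highest (log2 change -1.40 ± 0.30, limma adjusted p = 0.0210). This call was lost without MADS29OX replicate 1 and without any 1 WT array (adjusted p from 0.0502 to 0.0850 in limma). *ARF2* (LOC4325895), named *OsETTIN2*, had 32.5, 25.4 and 18.6 in MADS29OX leaves, against 33.7, 34.8 and 38.2 in WT leaves. Every MADS29OX array was again below every WT array, and the log2 change of -0.52 (95% interval -1.03 to -0.0023, adjusted p = 0.130 from limma) did not pass. It was -0.71 and passed without MADS29OX replicate 1 (adjusted p = 0.0305 in limma), and was -0.31 without replicate 3. A second probe set of *ARF2* gave -0.21, a size limited by the floor. It had 15.7, 16.2 and 10.1 in MADS29OX leaves, against 19.4, 17.4 and 18.8 in WT leaves. The remaining ETTIN-type gene, *ARF14*, was below the floor.

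*ETTIN1* and *ETTIN2*, taken as paralogs by their shared name, were the 1 ARF pair formed by name or neighbouring position in which both genes were tested. No pairs were formed by protein sequence, so closer relatives among the tested ARF genes may have been missed. The log2 change of *ARF2* minus that of *ARF15* was 0.89 (standard error 0.35, n = 3 arrays a group, exact permutation test, 2-sided, p = 0.1, the smallest that 3 arrays against 3 allow, adjusted p = 0.2 over 2 pairs). Both changes were negative, of which that of *ARF15* passed the test, and whether they differ in size could not be decided with these arrays. The pairs *ARF6* with *ARF25* and *ARF19* with *ARF21*, which share a name with a letter, had no probe sets of their own.

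Among the ARFs that microRNA miR160 targets, which act as repressors of auxin responses in Arabidopsis, 1 of the tested pair was called lower and the other had a small positive change. *ARF22* (LOC4348918) had 67.5, 44.4 and 47.6 in MADS29OX leaves, against 140, 128 and 149 in WT leaves. The change was 2.65-fold lower with no overlap of the groups (log2 change -1.41 ± 0.18, limma adjusted p = 0.00359), and leaving out any 1 array kept the call (adjusted p from 0.00122 to 0.0238 in limma). *ARF18* (LOC4341882) had 36.6, 37.1 and 32.4 in MADS29OX leaves, against 28.7, 28.9 and 26.4 in WT leaves. It was the 1 ARF gene with a positive change, of 1.26-fold (log2 change 0.34 ± 0.09, limma adjusted p = 0.0431), and its MADS29OX arrays were all above its WT arrays. It no longer passed in 5 of 6 fits with 1 array left out (adjusted p from 0.0604 to 0.147 in limma), all but that without MADS29OX replicate 3. *ARF10* of this type was below the floor, and *ARF8* had no probe set of its own. Shared regulation by the microRNA was not measured.

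All 6 ARFs of the type of Arabidopsis ARF1 and ARF2, which are repressors there, were tested. All 6 had negative log2 changes, against 51.3% of all tested genes, and rice *ARF1* could only come out negative. *ARF1* (LOC4327785) had 8.42, 11.9 and 8.87 in MADS29OX leaves, all below the floor, against 28.6, 33.2 and 42.6 in WT leaves. It was at least 2.14-fold lower (limma adjusted p = 0.00521). Without WT replicate 3, where it was highest, the log2 change was -0.95, under 2-fold, and with no floor it was -1.84. *ARF23* (LOC4350610), also named *OsARF1*, had 292, 342 and 227 in MADS29OX leaves, against 522, 533 and 532 in WT leaves. Its change of 1.87-fold lower (log2 change -0.90 ± 0.16, limma adjusted p = 0.0106) stayed just under the 2-fold limit, and a second probe set gave -0.93. Without MADS29OX replicate 2 it passed the limit as well (-1.04), and without WT replicate 2 its adjusted p was 0.0509 in limma.

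*ARF9* (LOC4335934) had 112, 134 and 113 in MADS29OX leaves, against 181, 171 and 177 in WT leaves, a log2 change of -0.57 ± 0.10 (limma adjusted p = 0.0107, and 0.0562 without WT replicate 1). *ARF7* (LOC4329672) had 23.8, 25.1 and 25.1 in MADS29OX leaves, against 30.2, 30.2 and 31.1 in WT leaves. Its change was small, with a log2 change of -0.30 ± 0.07 (limma adjusted p = 0.0274), and it no longer passed without MADS29OX replicate 3 or any 1 WT array (adjusted p from 0.0537 to 0.107 in limma). *ARF24* (LOC4352211), which in rice is reported to pair with ARF23, had 111, 83.3 and 71.2 in MADS29OX leaves, against 133, 115 and 137 in WT leaves. The groups did not overlap, and the change of -0.56 (95% interval -1.002 to -0.11) did not pass (limma adjusted p = 0.0739), except without MADS29OX replicate 1 (adjusted p = 0.0147). *ARF4* (LOC4326957) stood apart from these genes. Its signals were 252, 350 and 233 in MADS29OX leaves, against 303, 311 and 301 in WT leaves, with replicate 2 of MADS29OX above all WT arrays. The log2 change was -0.15 (95% interval -0.55 to 0.25, adjusted p = 0.532 from limma), and a second probe set gave -0.08. Single MADS29OX arrays decided its size: it was -0.33 and passed without replicate 2 (adjusted p = 0.0246 in limma), -0.09 without replicate 1 and -0.04 without replicate 3.

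The ARFs with a glutamine-rich middle region, which activate transcription, were poorly covered: 3 of 8 had a probe set of their own and 2 were tested. *ARF12* (LOC4337363) had 23.6, 29.8 and 16.8 in MADS29OX leaves, against 46.8, 41.8 and 41.3 in WT leaves. This was 1.90-fold lower (log2 change -0.92 ± 0.21, limma adjusted p = 0.0268), and it passed the 2-fold limit without MADS29OX replicate 2 (-1.12) and with array weights (-1.15). It no longer passed at the adjusted p without MADS29OX replicate 1 or any 1 WT array (adjusted p from 0.0512 to 0.102 in limma), and with a floor of 32 the change was -0.43. *ARF17* (LOC4341841) had 9.40, 8.39 and 10.3 in MADS29OX leaves, all below the floor, against 18.9, 21.2 and 22.6 in WT leaves. It was at least 1.30-fold lower (limma adjusted p = 0.0284), a value set by the floor, since with no floor the log2 change was -1.16 and the gene was called. At the floor of 16 it no longer passed without MADS29OX replicate 3, WT replicate 2 or WT replicate 3 (adjusted p from 0.0673 to 0.107 in limma).

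**Figure D2:**
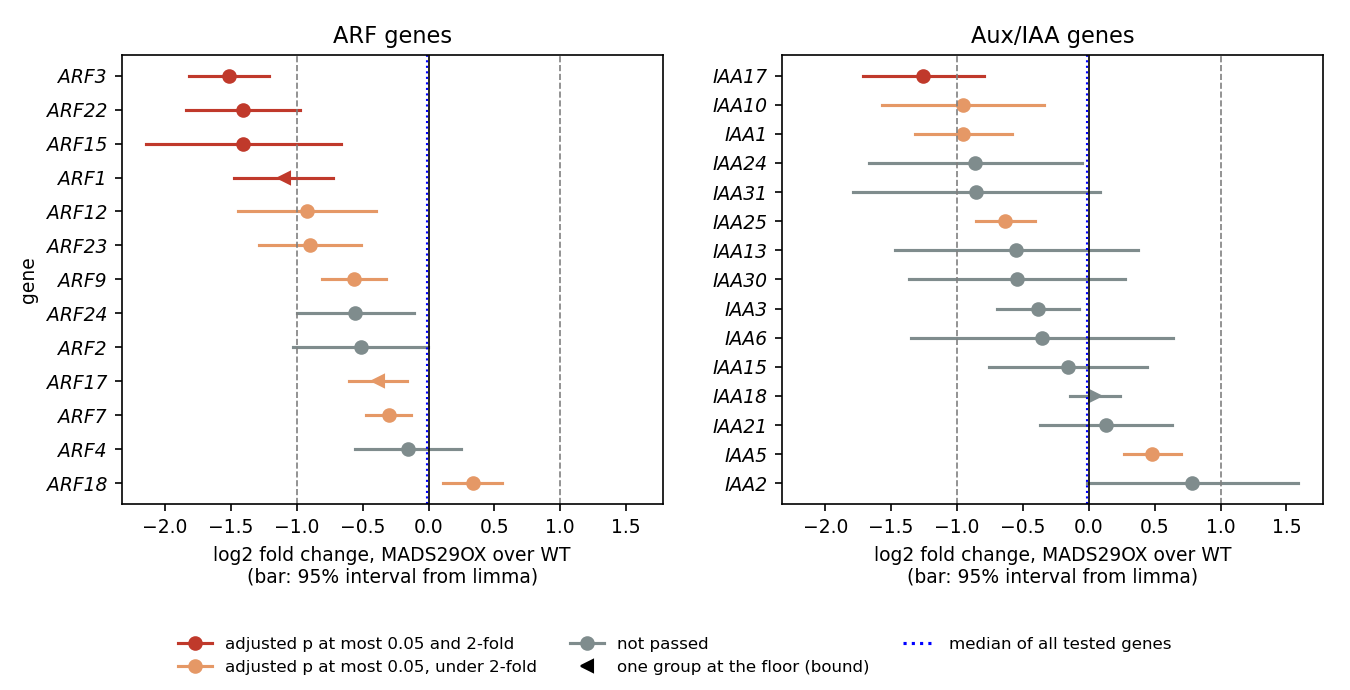
Log2 fold change of MADS29OX over WT for each tested ARF and Aux/IAA gene, with its 95% interval from limma; dashed lines mark 2-fold, the dotted line the median of all tested genes, and triangles genes with 1 group at the floor. 12 of 13 ARF genes and 11 of 15 Aux/IAA genes lie left of 0, against 51.3% of all tested genes. *ARF1* and *ARF17*, at the floor on all MADS29OX arrays, could only lie there. The 5 genes in red were called lower, against 5.03% of all tested genes.

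Aux/IAA genes were mixed, with 1 called gene. Of 26 on the array, 15 were tested, and 1, *IAA17*, was called lower and 0 higher, against 5.03% and 5.05% of all tested genes. At the adjusted p alone 4 were lower and 1 was higher, against 15.1% and 11.4%, and 10 did not pass. At an unadjusted p of at most 0.05 in limma 6 were lower and 1, *IAA5*, was higher (background 21.9% and 17.0%). Of the 5 Aux/IAA genes that passed at the adjusted p, 3 (*IAA1*, *IAA17* and *IAA25*) still passed whichever single array was left out, a count not made over all tested genes. On 6 of 15 genes all MADS29OX arrays lay below all WT arrays and on 1, *IAA5*, all lay above, counted after the floor (25.4% and 20.5% of all tested genes). The median log2 change of the tested Aux/IAA genes was -0.55, with a range of -1.26 to 0.79. The other 11 genes on the array stayed below the floor on all 6 arrays, with signals of at most 11.4, among them *IAA23*, known in rice for maintenance of the root quiescent centre. No test of the difference between the ARF and the Aux/IAA genes was made.

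**Figure D3:**
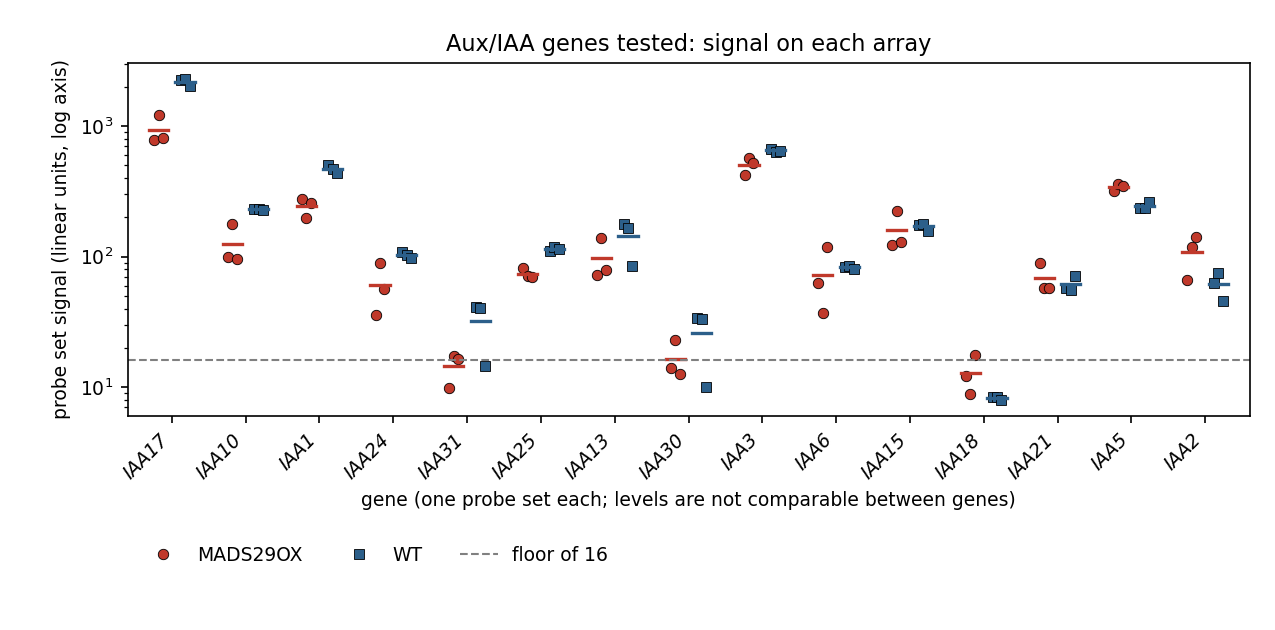
Signal of the 15 tested Aux/IAA genes on each array (log axis), with MADS29OX arrays as red circles left of WT arrays as blue squares; short lines are group means (n = 3) and the dashed line is the floor of 16. In 6 genes all MADS29OX arrays lie below all WT arrays, and in *IAA5* all lie above, as they do in *IAA18* with 5 of 6 arrays below the floor.

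*IAA17* (LOC4338160) had signals of 780, 1216 and 812 in MADS29OX leaves, against 2253, 2294 and 2030 in WT leaves. The groups lay far apart, with a change of 2.39-fold lower (log2 change -1.26 ± 0.19, limma adjusted p = 0.00639), and leaving out any 1 array kept the call. Its 1 probe set has the suffix _s_at, which Affymetrix gives to probe sets that can match several transcripts, so a share from a related gene was not tested. *IAA1* (LOC4323871) had 278, 196 and 260 in MADS29OX leaves, against 500.3, 469 and 438 in WT leaves. It stayed just under the limit at 1.93-fold lower (log2 change -0.95 ± 0.15, limma adjusted p = 0.00778), and passed it without WT replicate 3 or MADS29OX replicate 1 or 3 (-1.05 at the farthest). *IAA10* (LOC4331149), whose product is bound by a rice dwarf virus protein, had 99.0, 178 and 95.3 in MADS29OX leaves, against 231, 233 and 229 in WT leaves. Replicate 2 of MADS29OX was nearer to WT than the others, and the log2 change was -0.96 ± 0.25 (limma adjusted p = 0.0395) with all arrays and -1.25 without it. Without MADS29OX replicate 1 or 3 or any 1 WT array it no longer passed (adjusted p from 0.0847 to 0.123 in limma). *IAA25* (LOC4344471) had 81.3, 70.97 and 69.7 in MADS29OX leaves, against 111, 118 and 115 in WT leaves, a log2 change of -0.64 ± 0.09 (limma adjusted p = 0.00561).

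*IAA5* (LOC4325515) was the 1 Aux/IAA gene that was higher at the adjusted p. Its signals were 318, 358 and 349 in MADS29OX leaves, against 237, 237 and 261 in WT leaves, a change of 1.39-fold (log2 change 0.48 ± 0.09, limma adjusted p = 0.0126). It no longer passed without WT replicate 1 or 2 (adjusted p = 0.0654 and adjusted p = 0.0624 in limma). *IAA2* (LOC4326775) had 66.7, 118 and 141 in MADS29OX leaves, against 62.4, 75.5 and 45.8 in WT leaves. The groups overlapped through MADS29OX replicate 1, and the log2 change of 0.79 (95% interval -0.02 to 1.59, adjusted p = 0.137 from limma) did not pass. Without that array it was 1.10 and was called (adjusted p = 0.0271 in limma).

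The other tested Aux/IAA genes did not pass. *IAA3* (LOC4325890) had 420, 568 and 523 in MADS29OX leaves, against 672, 638 and 649 in WT leaves, a log2 change of -0.39 ± 0.13 (limma adjusted p = 0.0775, and 0.0291 without MADS29OX replicate 2). All its MADS29OX arrays were below its WT arrays, and this was also so for *IAA24* (LOC4342573), which had 35.5, 90.0 and 56.5 in MADS29OX leaves, against 108, 104 and 96.8 in WT leaves. The log2 change of *IAA24* was -0.86 (limma adjusted p = 0.112), and without MADS29OX replicate 2 it was -1.20 and was called (adjusted p = 0.0108 in limma), while without replicate 1 it was -0.53 (adjusted p = 0.133). *IAA6* (LOC4326541), which has been linked to drought tolerance and tiller outgrowth in rice, had the widest spread of log2 signals on the MADS29OX arrays among the tested Aux/IAA genes, with signals of 62.3, 37.2 and 118 in MADS29OX leaves, against 83.9, 85.2 and 80.0 in WT leaves. Its MADS29OX arrays lay on both sides of WT, and the log2 change was -0.36 (95% interval -1.35 to 0.64). *IAA15*, *IAA21* and *IAA18* had log2 changes of -0.16, 0.13 and 0.05, with 95% intervals of -0.76 to 0.44, -0.37 to 0.63 and -0.14 to 0.24. Without MADS29OX replicate 2 the change of *IAA15* was -0.43 and passed (adjusted p = 0.0194 in limma). *IAA18* was above the floor only on MADS29OX replicate 3, so its change and its narrow interval are set by the floor. With no floor its log2 change was 0.58 ± 0.25 and did not pass (limma adjusted p = 0.123).

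**Figure D4:**
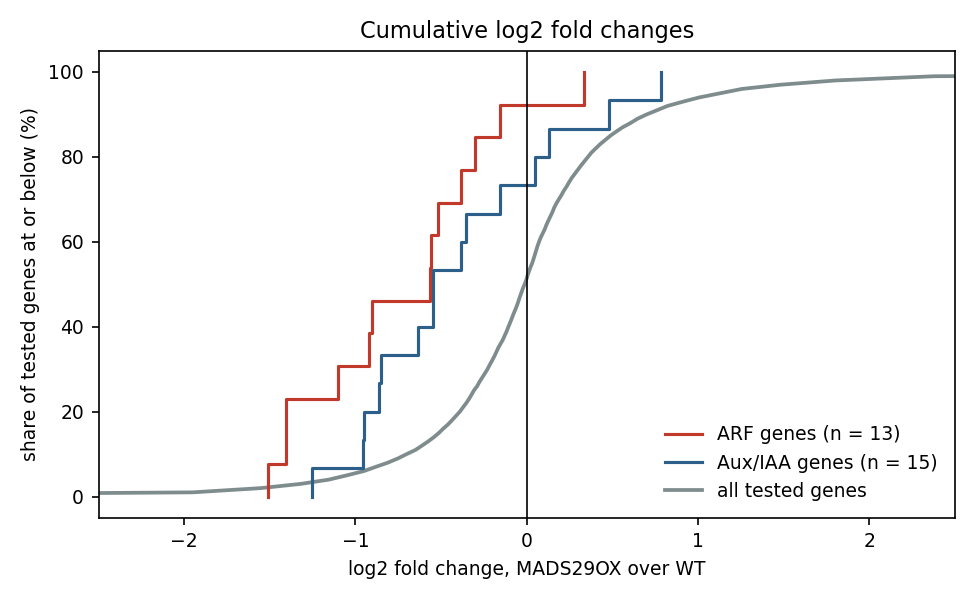
Share of tested genes (%) at or below each log2 change of MADS29OX over WT, for 13 ARF genes (red), 15 Aux/IAA genes (blue) and all 10045 tested genes (grey; the few genes with larger changes lie outside the axis). The medians are -0.57, -0.55 and -0.01.

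The neighbouring genes *IAA30* (LOC4352721) and *IAA31* (LOC4352722), the other testable paralog pair, were both low on WT replicate 3 and highest among the MADS29OX arrays on replicate 2. *IAA30* had 14.003, 22.8 and 12.6 in MADS29OX leaves, against 34.1, 33.3 and 9.96 in WT leaves. *IAA31* had 9.92, 17.3 and 16.5 in MADS29OX leaves, against 41.4, 40.7 and 14.4 in WT leaves. In both genes WT replicates 1 and 2 were above all MADS29OX arrays and WT replicate 3 was below the floor. The log2 changes were -0.55 (adjusted p = 0.286) and -0.85 (limma adjusted p = 0.160), and without WT replicate 3 they were -0.90 (adjusted p = 0.0480) and -1.31 (adjusted p = 0.00381), of which the change of *IAA31* was called. Without WT replicate 1 that of *IAA30* was -0.36. The log2 change of *IAA30* minus that of *IAA31* was 0.31 (standard error 0.17, exact permutation test, 2-sided, p = 0.3, adjusted p = 0.3 over 2 pairs). How far the probe sets of these neighbours cross-hybridize was not tested. Of the neighbours *IAA11* and *IAA12*, the first had no probe set of its own and the second lay below the floor.

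WT replicate 3 was also low in *IAA13* and *GH3.2*. *IAA13* (LOC4334069), known in rice for a mutant that blocks lateral root initiation, had 72.1, 139 and 79.5 in MADS29OX leaves, against 178, 165 and 85.3 in WT leaves, and WT replicate 3 lay among the MADS29OX arrays. Its log2 change was -0.55 (limma adjusted p = 0.338) with all arrays, -0.88 without WT replicate 3, -0.84 without MADS29OX replicate 2 and -0.35 without WT replicate 1, and it passed in none of these fits. *GH3.2* (LOC4326893), of the GH3 family that conjugates auxin to amino acids, had 19.9, 20.8 and 26.1 in MADS29OX leaves, against 55.3, 54.7 and 27.2 in WT leaves. Its log2 change was -0.97 (limma adjusted p = 0.0659), and without WT replicate 3 it was -1.31 and was called (adjusted p = 0.0111 in limma).

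This pattern was noticed after the values were seen, and it was described by a count. WT replicate 3 was at least 1.5-fold below both other WT arrays in 3 of 15 tested Aux/IAA genes (*IAA13*, *IAA30* and *IAA31*), in 0 of 13 ARF genes and in 94 of all 10045 tested genes (0.936%). The same count was 0 of 15 for WT replicates 1 and 2, against 0.00996% and 0.0199% of all tested genes. Among the MADS29OX arrays, replicate 2 was at least 1.5-fold above both others in 4 of 15 Aux/IAA genes and 1 of 13 ARF genes, against 7.78% of all tested genes. For MADS29OX replicates 1 and 3 the count was 1 of 15 Aux/IAA and 0 of 13 ARF genes each, against 3.29% and 2.22% of all tested genes. Counted the other way, MADS29OX replicate 1 was at least 1.5-fold below both others in 2 of 15 Aux/IAA genes (*IAA2* and *IAA24*), replicate 2 in 1 (*IAA6*) and replicate 3 in 0, with 0 of 13 ARF genes each, against 2.9%, 4.53% and 0.876% of all tested genes. By order alone, WT replicate 3 was the lowest WT array in 10 of 15 Aux/IAA genes and the highest in 2, *IAA5* and *IAA21*, and it was the lowest in 3 of 13 ARF genes and the highest in 7, against 28.6% and 38.6% of all tested genes. Per array, the median deviation from the WT mean over the tested ARF genes was -0.65, -0.53 and -0.93 on the log2 scale for MADS29OX replicates 1, 2 and 3, and over the tested Aux/IAA genes it was -0.64, -0.20 and -0.72. Replicate 2 was nearest to WT in both families, and all 3 medians were negative in each.

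**Figure D5:**
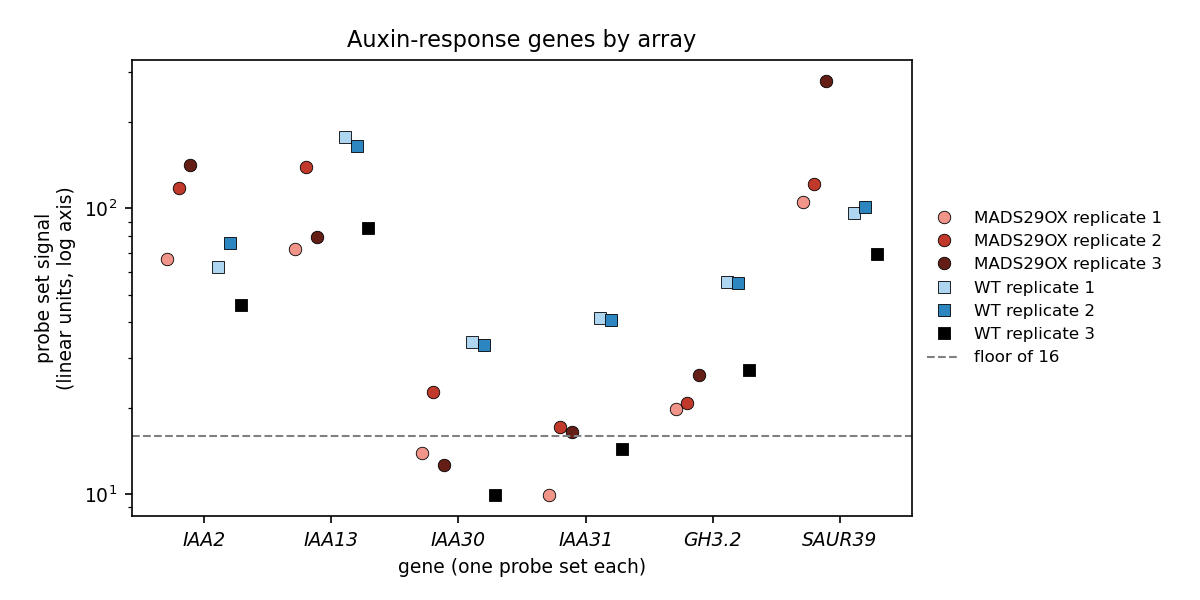
Signal of *IAA2*, *IAA13*, *IAA30*, *IAA31*, *GH3.2* and *SAUR39* on each array (log axis), with MADS29OX replicates as circles left of WT replicates as squares and the floor of 16 as a dashed line. The genes were chosen after their values were seen. WT replicate 3 (black squares) is the lowest WT array in these 6, and in *GH3.2* it has 27.2 against 55.3 and 54.7. It is the highest in *IAA5*, *IAA21*, *PIN5a*, *ASPR2*, *TPR3* and 7 of 13 tested ARF genes, which are not drawn.

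The rest of the auxin pathway was sparsely covered by names. Of 25 other genes in lists of receptors, co-repressors, conjugation, small auxin up RNAs, synthesis, transport and LBD targets, 21 had a probe set and 6 were tested, of which 1 was called higher and 1 lower (background 5.05% and 5.03%). No gene carried a receptor name, and both synthesis genes and the 1 LBD gene were below the floor. Of 2 TOPLESS-type co-repressor genes tested, 0 were called. *ASPR2* (LOC4327709) had 450.0, 324 and 330 in MADS29OX leaves, against 675, 695 and 793 in WT leaves, just under the limit at 1.98-fold lower (log2 change of -0.98, adjusted p = 0.00770 from limma). It passed the limit without MADS29OX replicate 1, WT replicate 1 or WT replicate 2. The probe set used for *ASPR2* has the suffix _s_at, and a share from a related gene was not tested. With the mean of its probe sets the log2 change was -0.89. *TPR3* had a log2 change of -0.10 (limma adjusted p = 0.586), which was 0.017 without MADS29OX replicate 3.

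Of 2 GH3 genes tested, *GH3.5* (LOC4339756) was called lower. It had 57.7, 57.2 and 60.1 in MADS29OX leaves, against 155, 155 and 144 in WT leaves (2.59-fold, adjusted p = 0.000291 from limma). Its synonym in the table is *JAR1*, a name for enzymes that conjugate jasmonate. The small auxin up RNA gene *SAUR39* (LOC9271092), a negative regulator of auxin synthesis and transport in rice, had 105, 122 and 280 in MADS29OX leaves, against 96.8, 101.0 and 69.2 in WT leaves. All its MADS29OX arrays were above its WT arrays, yet the log2 change of 0.80 (limma adjusted p = 0.196) did not pass, and without MADS29OX replicate 3 it was 0.37. *PIN5a* (LOC4324368), of the auxin efflux carrier family, had 38.6, 46.6 and 74.1 in MADS29OX leaves, against 18.7, 19.7 and 26.7 in WT leaves. It was 2.39-fold higher (limma adjusted p = 0.0223). The call was lost without WT replicate 1 or 2 (adjusted p = 0.0872 and adjusted p = 0.0875), and without MADS29OX replicate 3 the change stayed just under 2-fold (log2 change of 0.99).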

How the data were processed

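Each deposited array holds intensities in linear units for 57381 probe sets, 123 of them controls. The authors computed them from Affymetrix scans, and how they corrected background, normalized and summarized was not stated in what was read here. No scaling was applied. Array medians lay between 5.95 and 6.00, which is below the floor, so they do not show whether expressed signals share a scale. With quantile normalization 4 ARF genes and 1 Aux/IAA gene were called lower, as without it. After controls were dropped, intensities below 16 were set to 16 and converted to log2. Those 14238 probe sets that exceeded 16 somewhere were fitted with limma 3.58.1 in R 4.3.3, with group as the only term. With arrays, their number limits the precision. Genes came from the platform annotation (22436 probe sets with 1 gene, 95 with several, among them 1 shared by *IAA10* and left out) and from a gene table of assembly ASM3414082v1, whose coordinates are not used. A gene took the probe set with the highest mean of 6 arrays.

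The members and lists were chosen with earlier results of these data known. Every member is accounted for, and each tested member was given with its arrays if it was called, was among the 4 highest means of its family, belonged to a pair with a called member or was called under an alternative. In the other auxin lists, called genes were named, or else the gene with the highest mean. *IAA6*, *IAA13*, *IAA30*, *GH3.2* and *TPR3* fall outside this rule and were added after their values were seen. Paralogs were to be paired by protein identity. No protein sequences were used here, so neighbouring genes and genes with a shared name were taken instead, 5 pairs of which 2 were testable. ARF types follow general knowledge of the family. The bHLH gene *LAX1*, *LAX2* and a *GT2* gene that share names with list members were removed. The fit was tested on simulated data with changes of known size. No pairing of the samples by replicate number was seen in the signals. Alternatives covered the floor, the filter, scaling, thresholds, the variance model, the choice of probe set, a block for the replicate number and dropping single arrays.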

Additional observations from a re-analysis of the deposited data

How the results depend on the processing

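Counts of called genes depended on the floor, the filter and the fold limit. With log2 of the value plus 16, which tests all probe sets, 2 ARF and 0 Aux/IAA genes were lower and 0 other auxin genes were higher. With a floor of 32 there were 2 lower ARF genes and 0 higher other auxin genes, and with no filter on low values 1 lower ARF, 0 lower Aux/IAA and 0 higher other auxin genes. With no fold limit 1 ARF and 1 Aux/IAA gene were higher, and 9 ARF, 4 Aux/IAA and 2 other auxin genes were lower. Array weights gave 6 lower ARF and 2 lower Aux/IAA genes, and with no floor 5 ARF genes were lower. Leaving out _x_at and _s_at probe sets, which removes *IAA17*, gave 0 lower Aux/IAA genes. Among these settings, shares over all tested genes were counted only for the main one and for no fold limit. The median log2 change of the ARF genes was -0.90 with no floor and -0.91 with a minimum mean of 32, which tests fewer genes. With 1 array left out, lower ARF genes ran from 2 to 6, lower Aux/IAA genes from 1 to 3, higher Aux/IAA genes from 0 to 1, higher other auxin genes from 0 to 1 and lower ones from 1 to 2. The 2 lower ARF genes without WT replicate 3 were *ARF3* and *ARF22*. The medians then ran from -0.73 to -0.52 for ARF genes and from -0.63 to -0.36 for Aux/IAA genes. The log2 change of 3 Aux/IAA genes changed sign, as did that of *TPR3* (0.017 without MADS29OX replicate 3): *IAA6* had 0.036 with array weights and ran from -0.79 to 0.047 with 1 array left out, *IAA15* ran from -0.43 to 0.00085 and *IAA21* from -0.075 to 0.24. The cause was not tested. With the replicate number as a block 4 ARF and 1 Aux/IAA genes were lower, as without it. Arrays with the same number deviated from their group means with correlations of 0.04, -0.05 and -0.15 across 9302 probe sets. No pairing by number was seen, and with 3 arrays a group these values cannot decide whether same-numbered arrays shared a batch. Signals near the floor limit what can be measured. Of 43 genes, 15 stayed below the floor on all arrays. Further, *ARF1*, *ARF17* and *IAA18* were at the floor on all arrays of 1 group, and *ARF3*, *IAA30* and *IAA31* on some arrays.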

Other observations

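Some members below the floor of 16 had deposited signals that lay apart between the groups on all or some arrays, where no test was made. *ARF10* had 5.92, 6.05 and 5.97 in MADS29OX leaves, against 10.3, 7.04 and 9.34 in WT leaves, and *IAA12* had 5.97, 5.999 and 5.96 in MADS29OX leaves, against 7.55, 8.26 and 5.98 in WT leaves. *IAA8* had 6.89, 11.4 and 10.2 in MADS29OX leaves, against 6.93, 6.57 and 6.83 in WT leaves. The groups did not overlap in *ARF10*, but they overlapped in *IAA12* through WT replicate 3 and in *IAA8* through MADS29OX replicate 1. In *IAA19* they did not overlap either, with signals of at most 9.20 in MADS29OX leaves, against at least 10.2 in WT leaves. These signals carry little information, and the values are given as deposited.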
